A study of Sus scrofa with 8 samples.

Results

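The small heat shock proteins are chaperones that do not use ATP. They bind unfolding proteins and hold them until HSP70 machines refold them or autophagy removes them. In striated muscle they gather at the Z-disc and along the actin, titin and desmin filaments when the sarcomere is stressed, and mutations of several of them cause myopathy or motor neuropathy. The members described here are HSPB1, HSPB2, HSPB3, HSPB6, HSPB7, HSPB8 and CRYAB, the small heat shock proteins best known from muscle. They were chosen by gene symbol from the platform annotation, and all 7 were found, among 6765 genes with a symbol of their own. They are read by 9 probe sets of an Affymetrix porcine array that holds 23999. HSPB6 and CRYAB have a pair each and are led here by the probe set of higher mean level.

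The muscle was biceps femoris, from the hind limb of female domestic piglets, in a model of acute quadriplegic myopathy, the limb weakness of intensive care patients. The 4 corticosteroid arrays came from piglets given bolus doses of hydrocortisone during 5 days of sedation and mechanical ventilation (protocol text for 8 piglets, mean weight 26.4 kg). The 4 control arrays came from piglets sedated and ventilated for the same time without hydrocortisone (text for 4 piglets, mean weight 25.5 kg). An infusion of Escherichia coli endotoxin is described for the control samples, though not in their source label, and is not described for the treated ones. The series text adds an infusion of the neuromuscular blocker pancuronium without saying which animals received it. Hydrocortisone, endotoxin and any processing batch therefore cannot be told apart between the groups. Isoflurane, morphine and ketamine, antibiotics, glucose and a heating pad that held the core temperature appear in the texts of both groups. No label says that each array is a separate animal, so p-values rest on the spread between samples, which may be technical. Both groups were sedated and ventilated, and no unventilated muscle is among them.

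The tissue label was borne out by its markers. The 5 measured muscle identity genes (CKM, DES, TTN, NEB and MYOT) had a mean log2 level of 13.09 to 13.24 on corticosteroid arrays and 13.00 to 13.26 on control arrays. Each value is a log2 expression level of 1 probe set, and array medians ran from 5.86 to 5.97. The rows of the corticosteroid columns follow another order of the probe IDs than those of the control columns, and were re-assigned by the text of the IDs. This moves 3 of the 9 probe sets, those that lead HSPB1, HSPB8 and CRYAB. The other 6, of HSPB2, HSPB3, HSPB6, HSPB7 and the second probe set of CRYAB, keep their rows. Their values do not depend on the re-ordering.

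The small heat shock proteins divided into those with lower mean levels in corticosteroid-treated muscle and one that went the other way, and none of these differences passed the test over all probe sets. Means were lower for 6 of 7 genes and higher for HSPB2, and lower for 46.0% of all genes tested. The median log2 difference, corticosteroid minus control, was -0.67 over the 7 genes and 0.03 over all 5406 genes tested. With limma and Benjamini-Hochberg adjustment, 0 of 7 genes had an adjusted p under 0.05, and so did 0 of 14361 probe sets (0%), with a smallest adjusted p of 0.469. At an unadjusted p under 0.05 there were 4 of 7 genes, HSPB8, CRYAB, HSPB1 and HSPB7, all with lower means. Over all genes tested, 3.9% had such a p on the lower side and 5.27% on the higher side. In this bulk tissue fewer fibres of a type and less RNA per fibre cannot be told apart. Without control replicate 3 the count of 4 was 0 of 7, and without corticosteroid replicate 4 it was 1 of 7.

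**Figure D1:**
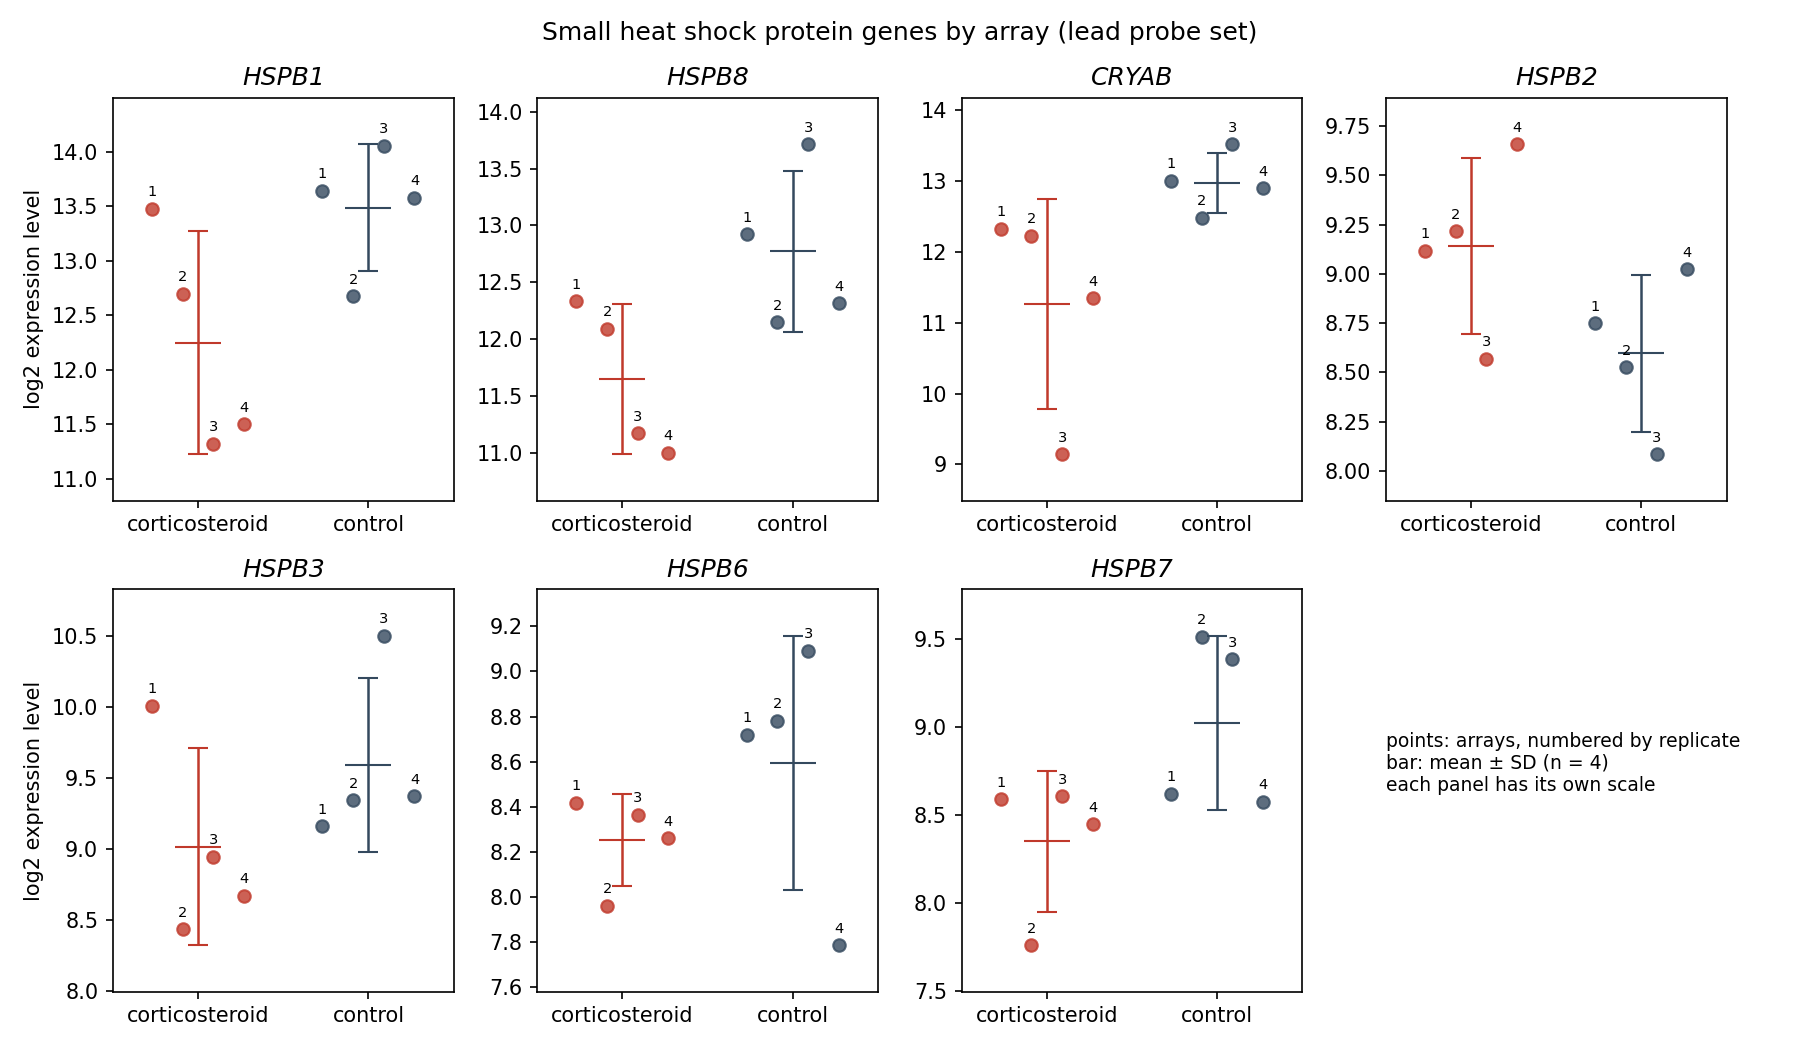
Log2 expression level (y axis, 1 scale per panel) of the 7 genes on each array, corticosteroid left and control right; points are arrays numbered by replicate, and bars give mean ± SD (n = 4). HSPB1, HSPB8 and CRYAB lie lowest on corticosteroid replicates 3 and 4, HSPB2 lies highest on corticosteroid replicate 4, and CRYAB is the gene whose groups do not overlap.

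HSPB8 is the small heat shock protein that works with the co-chaperone BAG3 to send damaged filamin to autophagy at the Z-disc. Its probe set (NCBI Gene 100155338) read 12.34, 12.09, 11.17 and 11.00 on corticosteroid replicates 1 to 4, against 12.92, 12.15, 13.71 and 12.32 on control replicates 1 to 4. Corticosteroid replicates 3 and 4 were the lowest of the 8 arrays and control replicate 3 the highest, and corticosteroid replicate 1 lay above control replicates 2 and 4. The mean was 11.65 ± 0.66 with corticosteroid and 12.77 ± 0.71 in controls (SD, n = 4 each), a log2 difference of -1.12 (SE 0.40, 95% confidence interval -2.01 to -0.23, limma adjusted p = 0.479). On the linear scale this is a 2.18-fold lower geometric mean.

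HSPB1, also called Hsp27, caps and protects actin filaments and is phosphorylated under stress. Its probe set (NCBI Gene 493184) read 13.48, 12.70, 11.32 and 11.50 on corticosteroid replicates 1 to 4, against 13.64, 12.67, 14.05 and 13.58 on control replicates 1 to 4. The groups overlapped, since corticosteroid replicates 1 and 2 lay above control replicate 2, while replicates 3 and 4 were lower than every control. Relative to the control mean, corticosteroid replicate 1 stood at -0.01 and replicate 3 at -2.17. The mean was 12.25 ± 1.02 with corticosteroid and 13.49 ± 0.58 in controls (SD, n = 4 each), a log2 difference of -1.24 (SE 0.47, interval -2.30 to -0.17, limma adjusted p = 0.482), or a 2.36-fold lower geometric mean.

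CRYAB, alpha B-crystallin, binds desmin and titin and is the small heat shock protein in which mutations cause a desmin-storage myopathy. Its leading probe set (NCBI Gene 100519789) read 12.33, 12.23, 9.14 and 11.35 on corticosteroid replicates 1 to 4, against 13.01, 12.49, 13.52 and 12.90 on control replicates 1 to 4. All 4 treated arrays lay below all 4 controls, by a narrow gap between corticosteroid replicate 1 and control replicate 2 and by a wide one on corticosteroid replicate 3. CRYAB was 1 of 7 members with groups that did not overlap in this direction, as in 2.02% of all genes tested. The mean was 11.26 ± 1.48 with corticosteroid and 12.98 ± 0.42 in controls (SD, n = 4 each), a log2 difference of -1.72 (SE 0.62, interval -3.11 to -0.33, limma adjusted p = 0.479), or a 3.29-fold lower geometric mean. Only 6 of the 5406 genes tested had a more negative difference. Corticosteroid replicate 3 sets much of its size, since the difference was -1.01 without that array.

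The second CRYAB probe set gave little signal. It read 4.52, 4.76, 3.50 and 4.13 on corticosteroid replicates 1 to 4, against 3.98, 3.81, 5.07 and 5.02 on control replicates 1 to 4. The groups overlapped widely, and as for the leading probe set corticosteroid replicate 3 was the lowest array and control replicate 3 the highest. All these values lie under the filter level of 5.27, so it was not tested in the main fit. Without the filter its difference was -0.24 (SE 0.35, limma adjusted p = 0.835). Its ID carries the same cluster number as the HSPB2 probe set. With both CRYAB probe sets averaged the difference was -0.98 (limma adjusted p = 0.555).

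For these genes the row order decides the size of the difference. With the rows as deposited, the treated means were 5.22 for HSPB8, 9.98 for HSPB1 and 8.63 for CRYAB, against unaltered control means of 12.77, 13.49 and 12.98. The differences were then -7.56 for HSPB8, -3.51 for HSPB1 and -4.34 for CRYAB, with limma adjusted p-values of 2.57e-08, 8.12e-06 and 4.81e-08. The sign was the same in both orders. That carries no weight, since the deposited order sets treated values of other probe sets against the high control levels of these genes.

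**Figure D2:**
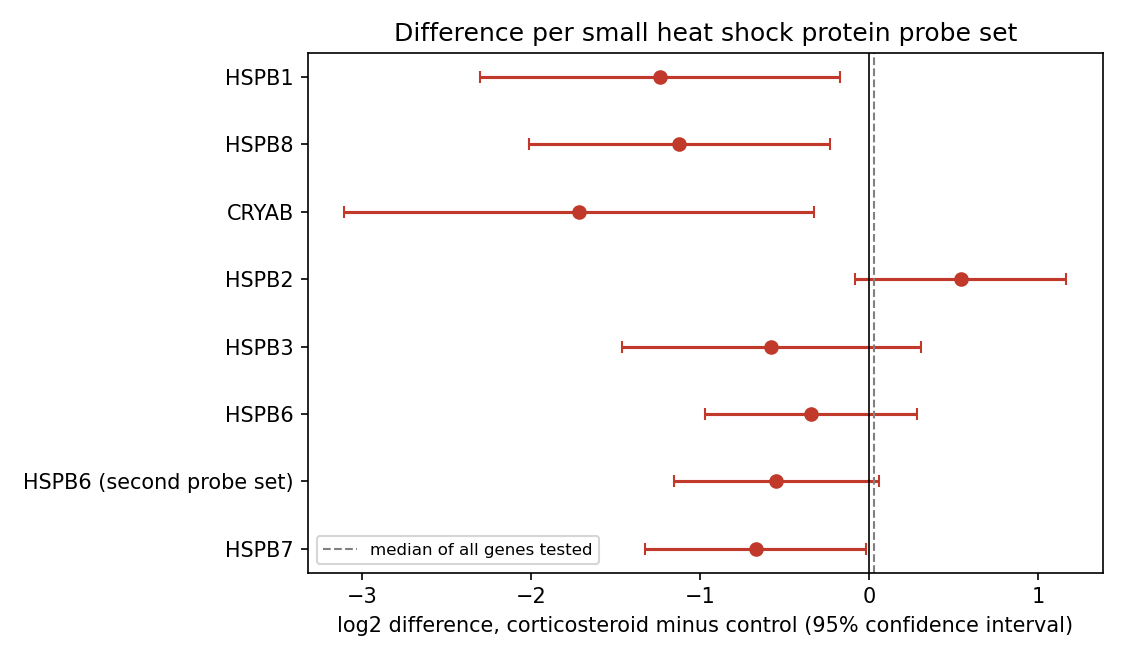
Log2 difference, corticosteroid minus control (x axis), for the 8 tested probe sets, with 95% confidence intervals from limma (n = 4 arrays per group); the dashed line is the median of all genes tested, 0.03. The intervals of HSPB1, HSPB8, CRYAB and HSPB7 lie below 0, before adjustment for the number of probe sets.

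HSPB2 and HSPB3 form a complex of their own in muscle, and HSPB2 was first known as a partner of the myotonic dystrophy kinase DMPK. HSPB2 (NCBI Gene 100520143) read 9.12, 9.22, 8.57 and 9.66 on corticosteroid replicates 1 to 4, against 8.75, 8.53, 8.09 and 9.02 on control replicates 1 to 4. Treated arrays 1, 2 and 4 were the highest of the 8, and treated replicate 3 lay among the controls. The mean was 9.14 ± 0.45 with corticosteroid and 8.60 ± 0.40 in controls (SD, n = 4 each), a log2 difference of 0.54 (SE 0.28, interval -0.08 to 1.17, limma adjusted p = 0.552). Control replicate 3, the highest array of 5 of the 7 genes, was the lowest for HSPB2.

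HSPB3 (NCBI Gene 100519061), a gene mutated in a motor neuropathy, read 10.01, 8.44, 8.95 and 8.67 on corticosteroid replicates 1 to 4, against 9.16, 9.34, 10.50 and 9.37 on control replicates 1 to 4. Treated replicates 2, 3 and 4 lay below every control, and treated replicate 1 lay above 3 of the 4. The mean was 9.01 ± 0.69 with corticosteroid and 9.59 ± 0.61 in controls (SD, n = 4 each), a log2 difference of -0.58 (SE 0.39, interval -1.46 to 0.31, limma adjusted p = 0.625). The difference was -0.28 without control replicate 3, -0.39 without corticosteroid replicate 2 and -0.91 without corticosteroid replicate 1.

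HSPB2 and CRYAB are neighbours in the pig genome annotation (assembly Sscrofa11.1), where their spans share 3414 bases. Their measured differences had opposite signs. The log2 value of CRYAB minus that of HSPB2 within each array was 3.21, 3.01, 0.57 and 1.69 on corticosteroid replicates 1 to 4, against 4.26, 3.96, 5.43 and 3.88 on control replicates 1 to 4. All treated arrays lay below all controls. These are differences between probe sets, and the change between the groups has a meaning while the size in 1 group has none. The group means differed by -2.26. This pair was picked after the values had been seen, so the difference is a description with no test, and it rests on the re-ordered CRYAB row. Leaving out corticosteroid replicate 3 gave -1.74, and leaving out control replicate 3 gave -1.91. With the rows as deposited it was -4.89.

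HSPB6, also called Hsp20, is phosphorylated by cAMP-dependent kinase and is abundant in slow and cardiac muscle. Its leading probe set (NCBI Gene 494560) read 8.42, 7.96, 8.37 and 8.26 on corticosteroid replicates 1 to 4, against 8.72, 8.78, 9.09 and 7.78 on control replicates 1 to 4. The treated arrays lay close together below 3 controls, and control replicate 4 was the lowest of all 8. The log2 difference was -0.34 (SE 0.28, interval -0.97 to 0.28, limma adjusted p = 0.673). It was -0.61 without control replicate 4 and -0.18 without control replicate 3.

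The second HSPB6 probe set gave the same picture. It read 7.45, 6.84, 7.19 and 7.01 on corticosteroid replicates 1 to 4, against 7.65, 7.84, 8.22 and 6.96 on control replicates 1 to 4. Again 3 controls lay above every treated array and control replicate 4 lay near the bottom. The log2 difference was -0.55 (SE 0.27, interval -1.15 to 0.06, limma adjusted p = 0.543), and -0.36 without control replicate 3.

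HSPB7, the cardiovascular small heat shock protein, binds filamin C and prevents aggregation of large thin-filament proteins. Its probe set (NCBI Gene 100627988) read 8.59, 7.76, 8.61 and 8.45 on corticosteroid replicates 1 to 4, against 8.62, 9.51, 9.39 and 8.57 on control replicates 1 to 4. Control replicates 2 and 3 stood above the other 6 arrays, and control replicates 1 and 4 lay level with treated replicates 1 and 3. The mean was 8.35 ± 0.40 with corticosteroid and 9.02 ± 0.50 in controls (SD, n = 4 each), a log2 difference of -0.67 (SE 0.29, interval -1.33 to -0.02, limma adjusted p = 0.524).

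**Figure D3:**
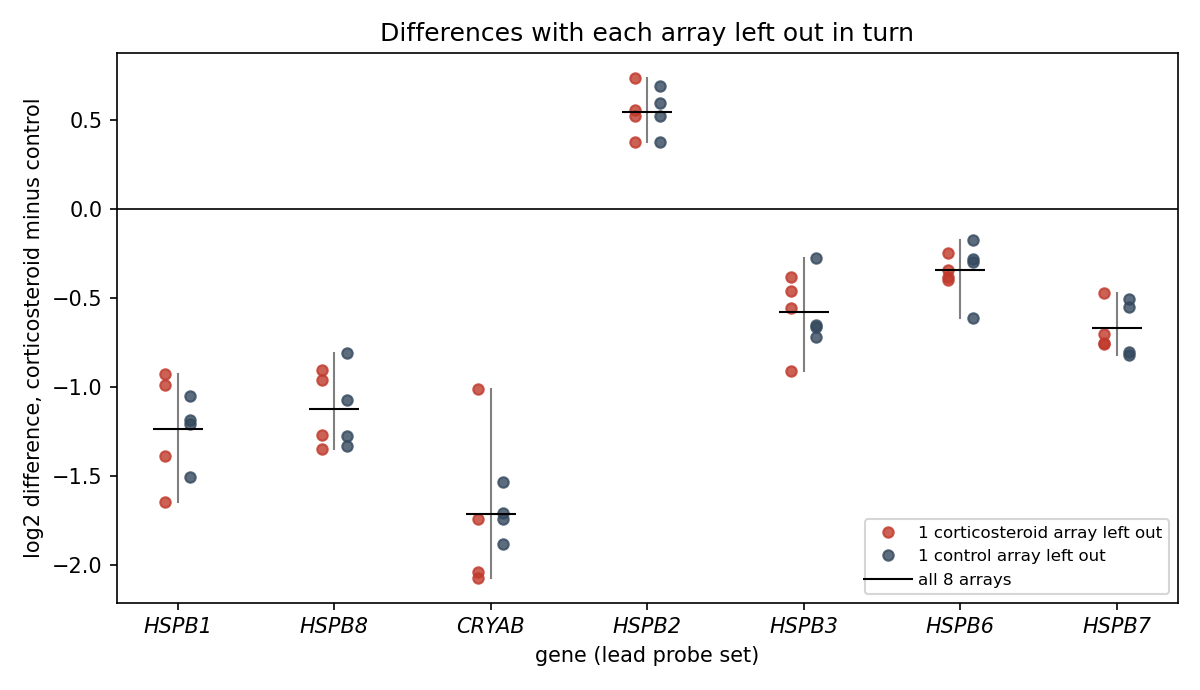
Log2 difference, corticosteroid minus control (y axis), of the 7 genes with each array left out in turn; red points leave out 1 corticosteroid array, dark points 1 control array, and the horizontal mark is the value from all 8 arrays. No difference changed sign, and the widest range was that of CRYAB, from -2.07 to -1.01.

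The genes varied between arrays of the same group more than most. The pooled within-group SD was 1.09 for CRYAB, 0.83 for HSPB1, 0.68 for HSPB8 and 0.65 for HSPB3, against a median of 0.32 over all genes tested, and all 7 genes lay above that median. Corticosteroid replicates 3 and 4 were the lowest arrays of HSPB1, HSPB8 and CRYAB, and of none of the other 4 genes. With each gene centred on its group means, HSPB8 followed HSPB1 with Pearson's r = 0.88 over the 8 arrays, and ranked 50 of 5405 genes by likeness to it. CRYAB followed HSPB1 with r = 0.80, rank 127. HSPB7 followed HSPB6 with r = 0.72, rank 62. HSPB7 and HSPB1 had r = -0.26, and HSPB2 and HSPB6 had r = -0.63. These coefficients describe 8 arrays whose processing batches are not stated, and they carry no test.

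Ranked the same way over all other genes tested, CRYAB was most like HSPA8 (r = 0.98), the constitutive cytosolic HSP70, followed by TUBB4B (0.96) and TAF13 (0.95). Corticosteroid replicate 3 was the lowest array of both CRYAB (9.14) and HSPA8 (11.17), so 1 array weighs heavily in their coefficient. HSPB1 was most like POR (0.98), NOTCH4 (0.97) and CCT4 (0.96), a subunit of the cytosolic chaperonin. HSPB8 was most like CCNJ (0.98), GPATCH4 (0.96) and GPBP1 (0.96). The nearest genes were EEF1AKMT1 (0.96), EED (0.96) and SMARCD3 (0.95) for HSPB2, and SDF2 (0.96), MED11 (0.96) and FHL1 (0.94) for HSPB3. For HSPB6 they were RSC1A1 (0.92), IRF1 (0.90) and B2M (0.89), and for HSPB7 they were WDR1 (0.96), INPP5F (0.95) and SLC7A1 (0.93). Being the highest of 5405 coefficients over 8 arrays, they are large by choice.

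**Figure D4:**
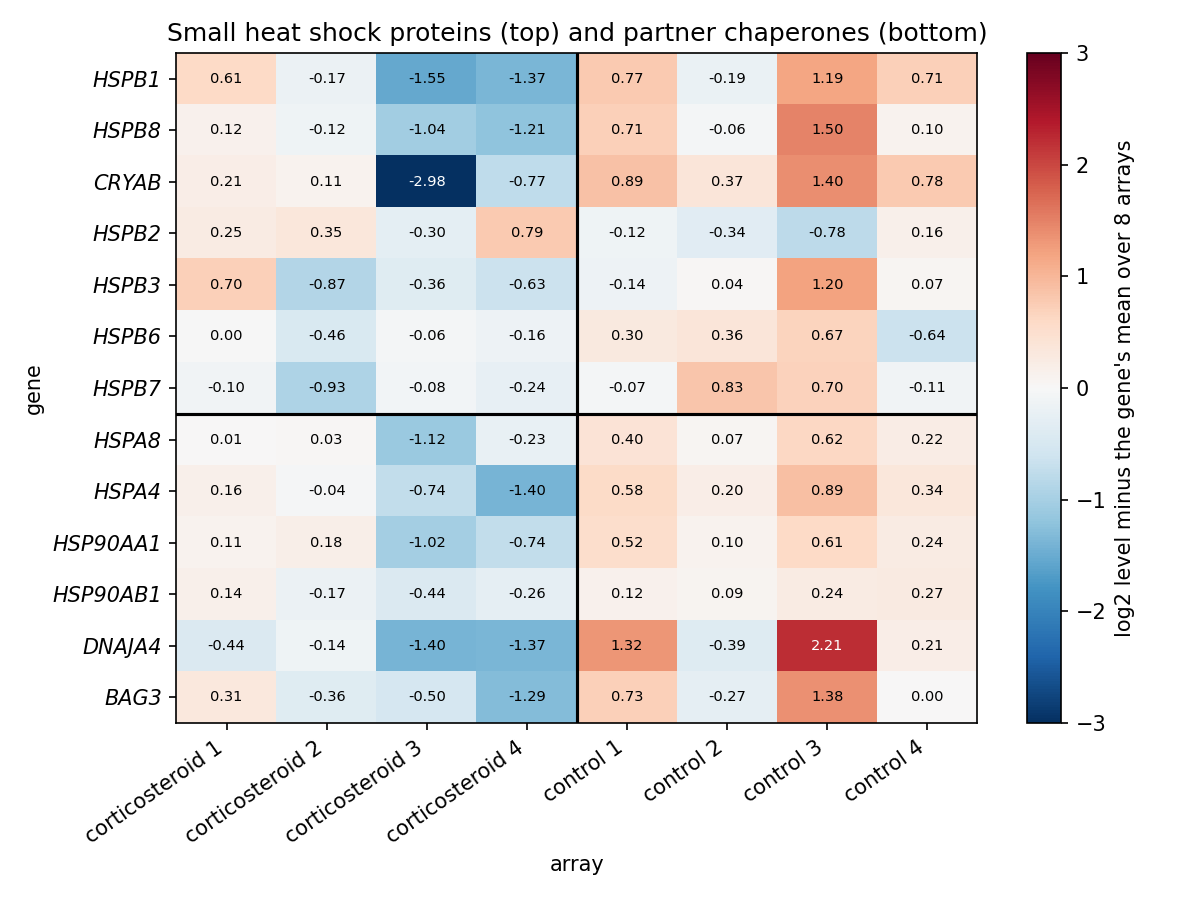
Log2 level minus the gene's mean over all 8 arrays (colour, red high and blue low, value printed) for the 7 small heat shock protein genes above the line and 6 partner chaperones below it; columns are corticosteroid arrays left and control arrays right. Corticosteroid replicate 3 is blue for HSPB1 (-1.55), HSPB8 (-1.04), CRYAB (-2.98) and all 6 partner chaperones, and HSPB2 is blue on control replicate 3 (-0.78). The 6 partners are those of the BAG3 and HSP70 lists with an unadjusted limma p under 0.05, all with lower means. Partners with higher means are not shown (3 in the BAG3 list and 5 in the HSP70 list), nor are the other partners with lower means.

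Partner chaperones had more lower than higher means. Over all genes tested, 46.0% had lower means. In the BAG3 and selective autophagy list, 9 of 12 genes were measured, 6 had lower means, and 2 had an unadjusted p under 0.05, both lower, with a median difference of -0.24. The centred mean of this list was 0.16, -0.15, -0.12 and -0.28 on corticosteroid replicates 1 to 4, against 0.13, -0.23, 0.33 and 0.17 on control replicates 1 to 4. The groups overlapped, and control replicate 2 was the second lowest array. HSPA8 read 12.30, 12.33, 11.17 and 12.07 on corticosteroid replicates 1 to 4, against 12.70, 12.36, 12.91 and 12.51 on control replicates 1 to 4, without overlap. Its log2 difference was -0.65 (SE 0.25, limma adjusted p = 0.482), and it was -0.39 without corticosteroid replicate 3. With all HSPA8 probe sets averaged it was -0.17, no longer at an unadjusted p under 0.05. BAG3, the scaffold that joins HSPB8 to HSP70, read 11.74, 11.08, 10.94 and 10.14 on corticosteroid replicates 1 to 4, against 12.16, 11.17, 12.82 and 11.44 on control replicates 1 to 4. Its difference was -0.92 (SE 0.41, limma adjusted p = 0.524), and it was -0.61 without control replicate 3. The ubiquitin ligase STUB1 differed by 0.41 (SE 0.23) and the autophagy scaffold WDFY3 by -0.25 (SE 0.21). STUB1 differed by 0.25 without corticosteroid replicate 4 and WDFY3 by -0.08 without control replicate 2.

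Of 19 other HSP70, HSP110, HSP90 and DNAJ partners, 15 were measured, 10 had lower means, and 4 had an unadjusted p under 0.05, all 4 lower. These 4 were DNAJA4 at -1.67 (SE 0.54), HSPA4 at -1.01 (SE 0.34), HSP90AA1 at -0.73 (SE 0.27) and HSP90AB1 at -0.36 (SE 0.14), with limma adjusted p-values from 0.479 to 0.482. HSPH1 at -1.70 (SE 0.76) and DNAJA1 at -1.26 (SE 0.57) fell just outside, with unadjusted limma p-values of 0.0503 and 0.0515. HSPH1 read 10.84, 10.65, 7.93 and 7.79 on corticosteroid replicates 1 to 4. DNAJA4 was at -0.81 with its probe sets averaged. The centred mean of this list was -0.74 and -0.57 on corticosteroid replicates 3 and 4, and 0.22 and 0.08 on corticosteroid replicates 1 and 2, against 0.06 to 0.59 on the control arrays. That of the small heat shock proteins was -0.91 and -0.51 on corticosteroid replicates 3 and 4, and 0.26 and -0.30 on replicates 1 and 2, against 0.14 to 0.84 on the control arrays.

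The factors that switch on heat shock genes, and a regulator of HSF1, had small differences relative to their standard errors. HSF1 differed by 0.02 (SE 0.19), HSF2 by -0.12 (SE 0.35) and the HSF1-binding protein HSBP1 by 0.11 (SE 0.16), with limma adjusted p-values from 0.815 to 0.981. HSF activity is set largely by protein state, which an array does not read. The signs of HSF1 and HSF2 turned under other settings.

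Among kinases and adaptors of small heat shock proteins, 10 of 14 genes were measured, 6 had lower means and 1 had an unadjusted p under 0.05. That gene was the phosphoserine-binding adaptor YWHAB at -0.60 (SE 0.26). MAPKAPK3, a kinase of HSPB1, differed by 0.40 (SE 0.18) and all its treated arrays lay above all controls, as in 3.4% of all genes tested, with a limma adjusted p of 0.524. The adaptors YWHAH and YWHAE differed by -0.41 (SE 0.24) and 0.34 (SE 0.35). YWHAE was set by 1 control array and differed by -0.03 without control replicate 4.

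Filament and Z-disc proteins, which these chaperones bind, had differences of both signs. Of 18 genes 12 were measured, 4 with lower and 8 with higher means, 0 had an unadjusted p under 0.05, and the median difference was 0.06. The titin cap TCAP differed by 0.64 (SE 0.30), the calcineurin-binding MYOZ1 by 0.35 (SE 0.19), myotilin (MYOT) by 0.14 (SE 0.20), titin (TTN) by -0.09 (SE 0.08) and desmin (DES) by -0.08 (SE 0.13). With 1 array left out TCAP ran from 0.39 to 0.81, MYOZ1 from 0.17 to 0.45, MYOT from 0.03 to 0.30 and DES from -0.17 to -0.01, and DES was at -0.40 with its probe sets averaged. Creatine kinase CKM differed by 0.10 (SE 0.07). The relative of the family HSPB11, which serves in cilia, differed by -0.22 (SE 0.30, limma adjusted p = 0.814), and ran from -0.44 without control replicate 2 to -0.01 without corticosteroid replicate 4.

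**Figure D5:**
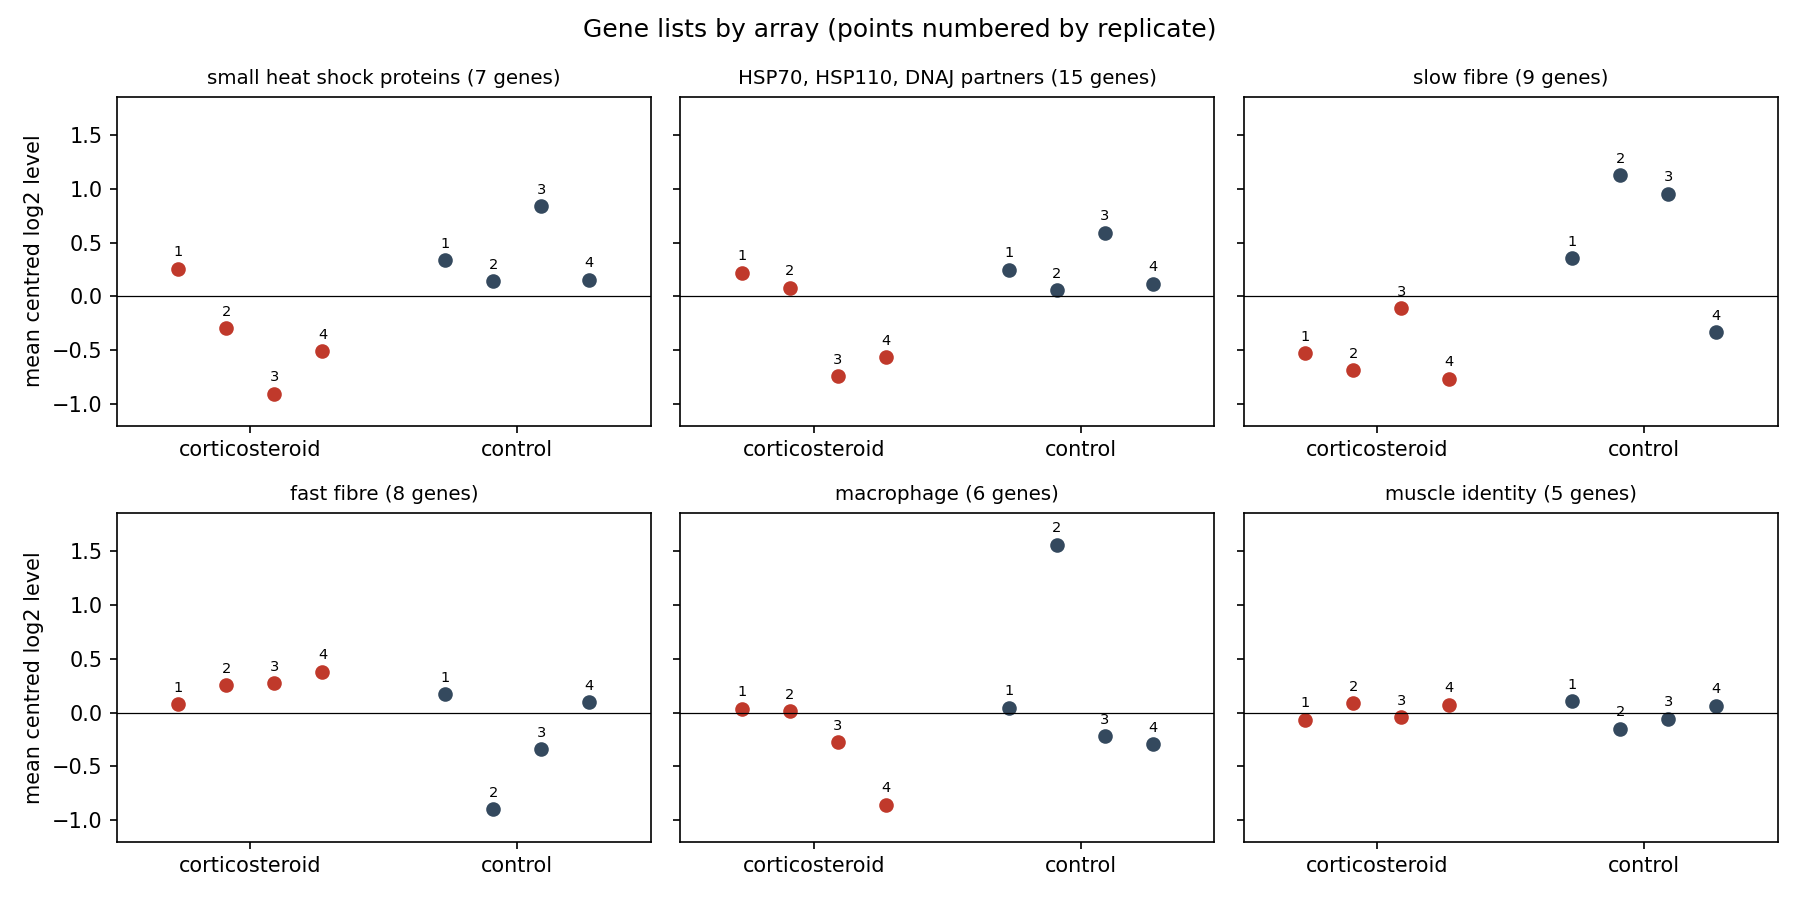
Mean log2 level of each list per array, each gene centred on its mean over 8 arrays (y axis), corticosteroid left and control right, points numbered by replicate. The small heat shock proteins and the HSP70, HSP110 and DNAJ partners are lowest on corticosteroid replicates 3 and 4, and the slow-fibre list is highest on control replicates 2 and 3.

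Fibre type markers also had different means in the groups, in another order of arrays than HSPB1, HSPB8 and CRYAB. All 9 measured slow-fibre genes had lower means, 6 of them at an unadjusted p under 0.05, with a mean list level of 9.58 to 10.23 on corticosteroid arrays and 10.01 to 11.47 on control arrays. The leading ones were TNNT1 at -1.78 (SE 0.40), ATP2A2 at -1.07 (SE 0.26), MYH7 at -1.17 (SE 0.32) and MYL2 at -0.98 (SE 0.28). ATP2A2 was at -0.65 with its probe sets averaged. All 8 measured fast-fibre genes had higher means, 3 of them at an unadjusted p under 0.05, led by TNNT3 at 0.66 (SE 0.21), TPM1 at 0.59 (SE 0.21), TNNC2 at 0.43 (SE 0.17) and ATP2A1 at 1.30 (SE 0.58). Without control replicate 2, TNNC2 differed by 0.25 and ATP2A1 by 0.63. With its probe sets averaged TPM1 differed by 0.12, no longer at an unadjusted p under 0.05. Their mean list level was 13.42 to 13.72 on corticosteroid arrays and 12.45 to 13.51 on control arrays. Corticosteroid replicate 3, lowest for CRYAB, had the highest slow-fibre score of the treated arrays (-0.11, against -0.53, -0.69 and -0.77 on corticosteroid replicates 1, 2 and 4). Control replicate 4, lowest for HSPB6, had the lowest slow-fibre score of the controls (-0.33, against 0.35, 1.13 and 0.95 on control replicates 1, 2 and 3). Control replicates 2 and 3, highest for HSPB7, had the highest slow-fibre scores. Corticosteroid replicates 2 and 4, lowest for HSPB7, had the lowest slow-fibre scores. The part of fibre type in these differences was not tested.

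Smooth muscle also holds HSPB1 and HSPB6. Of 7 measured markers of smooth muscle and pericytes, 4 had lower means and 1 an unadjusted p under 0.05. That gene was RGS5, at -0.71 (SE 0.25, limma adjusted p = 0.479). The list level was 8.52 to 8.57 on corticosteroid arrays and 8.24 to 8.94 on control arrays. Macrophage markers had lower means for 6 of 6 genes, 0 of them at an unadjusted p under 0.05, at list levels of 6.16 to 7.05 on corticosteroid arrays and 6.72 to 8.58 on control arrays, with control replicate 2 highest. Endothelial markers stood at 8.01 to 8.30 on corticosteroid arrays and 7.93 to 8.19 on control arrays, and 3 of 6 had lower means. Fibroblast markers stood at 8.41 to 9.07 on corticosteroid arrays and 8.42 to 9.51 on control arrays, and adipocyte markers at 7.85 to 10.10 on corticosteroid arrays and 8.14 to 9.43 on control arrays. The centred mean of the adipocyte markers was 0.30, 1.18, -0.78 and -1.08 on corticosteroid replicates 1 to 4, against -0.79, 0.51, 0.50 and 0.16 on control replicates 1 to 4, so that corticosteroid replicates 3 and 4 were low here too. Of the erythroid markers, 2 of 2 tested had lower means. Their centred mean was -0.13, -0.04, -0.40 and -0.70 on corticosteroid replicates 1 to 4, against -0.15, -0.18, 1.42 and 0.17 on control replicates 1 to 4. As for HSPB1, HSPB8 and CRYAB, corticosteroid replicates 3 and 4 were the lowest arrays and control replicate 3 the highest. The haemoglobin gene HBB differed by -0.55 (SE 0.22, limma adjusted p = 0.483), and its groups did not overlap. The 4 neutrophil markers measured had mean levels over the 8 arrays under the filter level and were not tested. S100A9 averaged 4.20 on corticosteroid arrays and 5.52 on control arrays, with overlap. The part of these cells in the chaperone differences was not tested.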

How the data were processed

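Total RNA of biceps femoris was hybridised to 8 Affymetrix porcine arrays. The authors deposited 1 log2 value for each probe set and array. MAS5 is the tool named in the submitters' processing notes, and the scaling between arrays is not given there. Precision is limited by the number of arrays, with a median standard error of 0.219 for a log2 difference.

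Corticosteroid columns were re-assigned to the probe IDs sorted as text with full stops ignored, which moved 9389 of 23999 rows (39.1%) with 0 tied IDs. The correlation of group means over all rows was 0.989 after and 0.629 before. Control columns were kept as listed. Names came from the platform's annotation table (1 symbol for 10069 probe sets, several for 198, none for 13732), and all 9 member probe sets matched the current symbol by gene ID. No sequence table was used here, so no sequence is shown.

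Reporter probe sets (64) did not enter the fit. The 2 groups were fitted in R 4.3.3 by limma 3.58.1 (lmFit, then eBayes with a trend on intensity) over the 14361 probe sets above the 40th percentile of mean level, with Benjamini-Hochberg adjustment at 0.05. A run on simulated independent normal values checked only the mean size of planted differences, not power or false calls. Tables were made with Python 3.11.15, numpy 2.4.6 and pandas 2.3.3. The alternatives were a replicate block, scaling, filter, 16 added before log2, variance model, array weights, averaged probe sets, arrays left out and row order.

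Named genes were all members, the 4 of smallest p in each partner or fibre list, and the 3 most like each member. HSPH1, DNAJA1, RGS5, HBB and S100A9 were named outside this rule, with their values known. Members and lists were chosen with earlier results of these data known.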

Additional observations from a re-analysis of the deposited data

Results flagged for a closer look

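In 78 groups of 4 arrays examined for the small heat shock proteins and the other genes named, 3 had 1 array far from the others, and chance alone gives about 1 in 20. HSPB3 read 10.50 on control replicate 3, against 9.16 to 9.37 on the other controls. DES read 12.97 on corticosteroid replicate 4, against 12.61 to 12.66 on the other treated arrays. YWHAE read 8.14 on control replicate 4, against 9.53 to 9.66 on the other controls.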

How the results depend on the processing

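Over the 21 alternatives, the 164 recomputed differences of the small heat shock proteins kept their sign in 164 cases. Many of these could not turn, since the replicate block, the filters and the variance models leave the difference itself unchanged. The same holds for probe sets in unmoved rows when the row order is changed. With the rows as deposited HSPB1, HSPB8 and CRYAB passed the adjusted threshold, and in no other alternative did a member pass it. With 1 array left out, the count of members at an unadjusted p under 0.05 ran from 0 to 5, that of all probe sets from 892 to 1783, and that of probe sets at an adjusted p under 0.05 from 0 to 1. On unmoved rows alone 3 of the 4 members left had lower means, 1 had an unadjusted p under 0.05, and 828 probe sets did. Without a filter 2160 probe sets had an unadjusted p under 0.05, and with rows as deposited 6101 did and 5454 passed after adjustment. HSPB2 differed by 0.35 without control array 2 and corticosteroid array 4.

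Replicate numbers were not taken to pair the arrays, since same-numbered arrays correlated with r = -0.25, 0.11, 0.10 and 0.05 in their deviations. With a replicate block 4 members and 1332 probe sets had an unadjusted p under 0.05 and none passed after adjustment. The 4 members were not those of the fit without it, since HSPB2, with a higher mean, took the place of HSPB7. HSPA8 and HSP90AB1 also had an unadjusted p over 0.05 with the block.

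Signs turned for other genes. With the rows as deposited the difference was -6.73 for TNNC2, -6.26 for CKM, -0.42 for MYOT, -5.30 for MAPKAPK3 and -2.61 for MYOZ1. TTN was at 0.0462 with probe sets averaged, and HSF1 at -0.0141 with array weights and -0.0708 without control array 2 and corticosteroid array 4. With 1 array left out, HSF1 ran from -0.0862 to 0.10, HSF2 from -0.32 to 0.16 and YWHAE from -0.0312 to 0.47. BAG3, HSPA8, HSP90AA1, HSP90AB1, YWHAB, TNNC2 and TPM1 each had an unadjusted p over 0.05 with at least 1 single array left out. HSBP1 ran from 0.03 to 0.19 with 1 array left out. Without control array 2 and corticosteroid array 4, YWHAB was at -0.35, YWHAH at -0.23, MYL2 at -0.64 and TNNT3 at 0.40. The causes were not tested. Signal over background was not analysed here.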
